A study of Homo sapiens
Mus musculus and Mus musculus and Homo sapiens with 3 samples.

Results

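PHOX2A, TBX20, TBX2, TBX3, EBF1, EBF2 and EBF3 are transcription factors known from the motor neurons of the hindbrain that supply branchial arch muscle and parasympathetic ganglia, and these 7 genes, of 15472 symbols found in every count table, were followed across the cells of a motor neuron differentiation. They were chosen by name with earlier results of these data known, namely the PHOX2A and EBF1 counts that made these genes lead 1 group of cells in mouse replicate 1. PHOX2A-positive mouse neurons are therefore described here with no p-value. Calls between them and other neurons picked most of the further genes named for them, and nothing else is read from those calls. The design followed motor neuron production in human and mouse embryoid bodies, which are floating aggregates of differentiating pluripotent cells, by sequencing the 3′ ends of transcripts of single cells in droplets. Cells were collected every 48 h in human and every 24 h in mouse and pooled, with no day recorded for a cell. The groups were human replicate 1 (line NCRM1, induced pluripotent), human replicate 2 (line RUES1, which the labels call induced pluripotent), mouse replicate 1 and mouse replicate 2 (both C57BL/6 embryonic stem cells). All 4 had been transduced before differentiation with a lentivirus that expressed GFP from the CAGGS promoter and carried a barcode, all were sorted for GFP, and none was a mutant or an untreated control. Replicate 1 of both species came from 1 mixed library, and each human replicate is 1 line. The labels do not say that the mouse replicates were separate cultures. No p-value here thus covers more than the spread between these libraries.

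In the embryo, neural progenitors with NKX2-2 next to the floor plate of the hindbrain give rise to branchiomotor and visceral motor neurons, which express PHOX2 homeodomain factors and ISL1 and lack the somatic motor neuron factor MNX1. In the mouse, PHOX2A acts in the formation of cranial motor nuclei and noradrenergic centres, and the T-box factors TBX20, TBX2 and TBX3 are found in cranial motor neurons, where TBX20 is needed for the migration of facial neurons. EBF1, EBF2 and EBF3 are zinc-binding helix-loop-helix factors of the COE family. They are switched on broadly as neurons leave the progenitor layer, so they mark early neuronal differentiation in general and not 1 neuron type.

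After filters on cells, 2321 and 1805 human cells and 1811 and 2674 mouse cells were used, and values of a pair of libraries are given for replicate 1 and then replicate 2. The median was 11172 and 16758 unique molecular identifiers (UMIs, 1 per captured transcript) in human replicates 1 and 2 and 19178 and 29210.5 UMIs in mouse replicates 1 and 2. Because of this depth gap, cells were sorted into groups after each had been thinned to 7000 UMIs, which 83.0% and 80.9% of human cells and 96.3% and 94.3% of mouse cells reached. Cells with at least 3 UMIs of STMN2, a stathmin of growing axons, were taken as neurons. There were 349 and 378 of them in human replicates 1 and 2 and 211 and 455 in mouse replicates 1 and 2. As a check of this gate, ISL1 was found in 113 of 349 and 210 of 378 human neurons and in 78 of 211 and 186 of 455 mouse neurons, and SOX2, a progenitor factor, in 55 and 65 human neurons and in 36 and 13 mouse neurons. Levels are given as CPM, the summed raw counts of a group scaled by the group's total UMIs in the usual way, with 95% intervals from counting error alone, and a UMI from the 3′ end is not scaled by gene length. Counts of genes past a test come from edgeR's quasi-likelihood test on these sums with Benjamini-Hochberg adjustment over all genes tested and a threshold of 0.05.

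In neurons, EBF1 and PHOX2A were lower in human than in mouse, TBX20 was found in mouse only, and EBF2, EBF3 and TBX3 did not pass the test between the species. In that comparison 17.5% of 10454 genes passed, 7.31% as lower in human, and of the 5 members that could be tested 2 passed, both lower in human, while TBX20 and TBX2 had too few counts. EBF1 was at 29.5 and 31.2 CPM in human, against 542 and 397 CPM in mouse. Both human libraries lay far below both mouse libraries. The log2 fold change, human over mouse, was -3.89 ± 0.41 (SE, n = 2 each; edgeR quasi-likelihood adjusted p = 0.00814), and it ranged from -4.16 to -3.56 with 1 library left out, each time with an adjusted p under the threshold. PHOX2A was at 0 and 0.458 CPM in human, against 198 and 16.5 CPM in mouse. The human libraries again lay below the mouse libraries, although the mouse libraries differed between themselves more than for any EBF gene. Over all neurons of a species, 3 PHOX2A UMIs were counted in human (0.292 CPM) and 788 in mouse (57.3 CPM), a ratio of mouse over human of 196 with a counting interval of 66.8 to 953. Its adjusted p was 0.0236, but without human replicate 1 it was 0.0513 and without human replicate 2 it was 0.0910, so that the call rests on both human lines being in the fit. Without mouse replicate 1, whose counts chose the genes, the adjusted p was 0.0125 for EBF1 and 0.0263 for PHOX2A. Human and mouse transcripts were counted on different annotations, and the part of gene models in a difference between species was not tested.

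TBX20 had 0 UMIs in all 3388 human cells of 7000 or more UMIs, against 47 UMIs in 4265 mouse cells. In neurons it was at 0 CPM in both human replicates, against 6.48 CPM in mouse replicate 1 (20 UMIs in the sum) and 1.03 CPM in mouse replicate 2 (11 UMIs). The limit of 3 counts over all human neurons, 0.292 CPM, lay below both mouse levels. TBX3 was low and uneven in both species, at 0.537 and 4.13 CPM in human, against 0.648 and 2.44 CPM in mouse. Each second library was the higher one of its species, the groups overlapped, and the log2 fold change was 0.59 ± 0.95 (SE, n = 2 each; edgeR adjusted p = 0.705). TBX2 reached at most 1.12 CPM in neurons of any library, in mouse replicate 2, and 0.458 CPM in human replicate 2, with 0 UMIs in neurons of human replicate 1.

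The levels of the other EBF genes in neurons lay closer together between the species. EBF2 was at 18.0 and 11.8 CPM in human, against 41.2 and 22.3 CPM in mouse. The highest human value lay below the lowest mouse value, but the log2 fold change of -1.02 ± 0.56 did not pass (SE, n = 2 each, edgeR adjusted p = 0.252). Neurons with 30 or more STMN2 UMIs were 114 of 349 and 130 of 378 in human, against 4 of 211 and 62 of 455 in mouse. Among neurons, EBF2 was found least often at that count in both human libraries and in mouse replicate 2. The part of this make-up of the neurons in the differences between species was not tested. EBF3 was at 41.1 and 72.4 CPM in human, against 48.0 and 44.9 CPM in mouse. Here the mouse values lay between the human ones, and the log2 fold change was 0.34 ± 0.40 (edgeR adjusted p = 0.593). The 3 genes therefore made up different shares of all EBF UMIs in neurons. EBF1 was 33.3% and 27.0% of EBF UMIs in human, against 85.9% and 85.5% in mouse. EBF3 was 46.4% and 62.8% in human neurons, against 7.60% and 9.67% in mouse neurons, so it was the largest of the 3 in both human libraries and EBF1 in both mouse libraries. With 2 libraries a species, an exact two-sided permutation test cannot go below p = 0.33, which was its value for each of these shares.

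**Figure D1:**
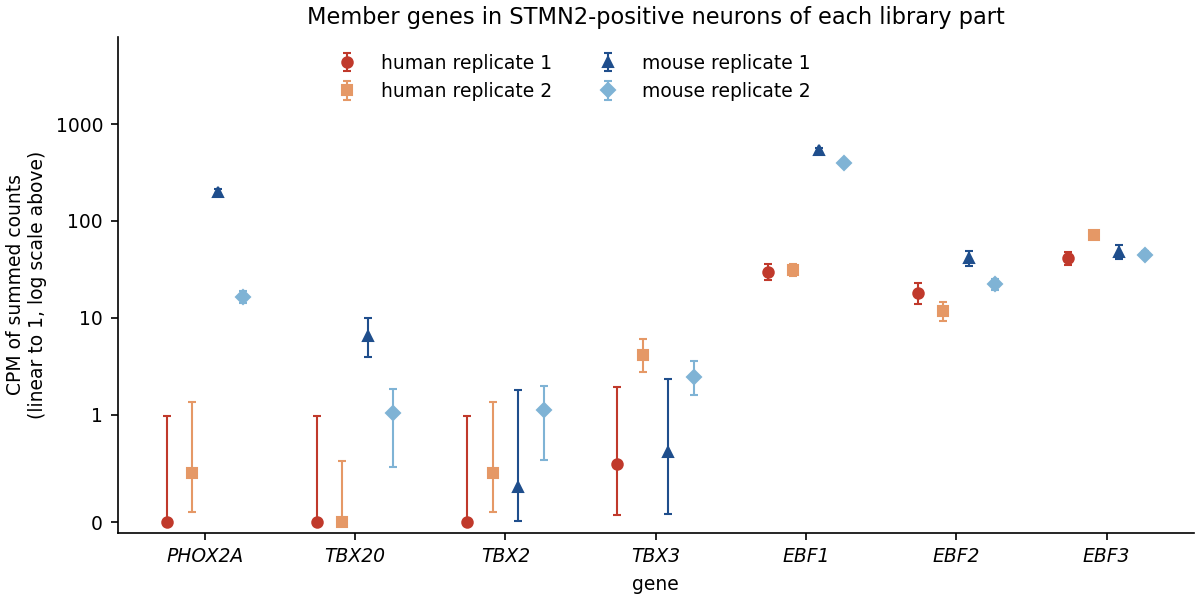
Level of each of the 7 genes in STMN2-positive neurons, in CPM of summed counts (vertical axis, linear to 1 and logarithmic above), with human libraries left of mouse libraries for each gene; bars are 95% counting intervals. EBF1 sits near 30 CPM in both human libraries and above 390 CPM in both mouse libraries, while EBF3 lies between 41.1 and 72.4 CPM in all 4.

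The shares of neurons with at least 1 UMI followed the levels. EBF1 was detected in 14.6% (11.1 to 18.8%, exact Clopper-Pearson) and 14.8% (11.4 to 18.8%) of human neurons, against 65.4% (58.6 to 71.8%) and 54.3% (49.6 to 58.9%) of mouse neurons. In SOX2-positive cells with no STMN2 UMI, taken as the background, EBF1 was found in 1.23% and 2.01% of human cells and in 6.95% and 4.01% of mouse cells, at median depths of 12779.5 and 20698 UMIs in human and 21324 and 34129 UMIs in mouse, against 9994 and 16665.5 UMIs in human neurons and 14046 and 23044 UMIs in mouse neurons. EBF1 detection in neurons was thus above its background in all 4 libraries. Without thinning, EBF1 was found in 17.4% and 21.5% of human neurons and in 74.3% and 65.6% of mouse neurons. PHOX2A was found in 0 of 349 and 2 of 378 human neurons, against 32 of 211 (15.2%, 10.6 to 20.7%) and 13 of 455 (2.86%, 1.53 to 4.84%) mouse neurons. The human shares, 0% and 0.529%, were below the human background of 0.189% and 1.51%, so they are read as background. The mouse shares were above the mouse background of 0.543% and 0.196%. For each of these shares the exact permutation p between species was 0.33, the smallest that 2 libraries against 2 allow.

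EBF3 was found in 23.8% and 39.2% of human neurons, against 27.5% and 24.2% of mouse neurons, and EBF2 in 10.9% and 6.88% of human neurons, against 20.4% and 12.5% of mouse neurons. Their backgrounds were 1.52% and 4.52% in human and 2.71% and 1.37% in mouse for EBF3, and 2.27% and 1.51% in human and 6.08% and 3.42% in mouse for EBF2. Without thinning, the EBF3 shares were 25.4% and 49.8% in human and 45.3% and 47.0% in mouse, so the order of the species in the mean EBF3 share depended on thinning. At least 1 of the 3 EBF genes was detected in 46.2% ± 6.54 of human neurons and 69.3% ± 9.97 of mouse neurons (SD, n = 2 each; exact permutation p = 0.33). All 3 were seen together in 4 and 1 human neurons and in 11 and 19 mouse neurons.

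Set against the remaining cells of the same libraries, neurons held more of all 3 EBF genes in both species, and more PHOX2A and TBX20 in mouse, whereas PHOX2A was lower in neurons in human. In human, 35.8% of 12345 genes passed this comparison, 16.2% higher and 19.6% lower in neurons, and 4 members did: EBF1, EBF2 and EBF3 rose and PHOX2A fell in neurons relative to STMN2-negative cells. In mouse, 49.6% of the genes passed, 23.1% higher in neurons, and 5 members rose in neurons: PHOX2A, TBX20, EBF1, EBF2 and EBF3. Since such large shares of all genes passed, the counts of members say little by themselves. EBF1 was at 29.5 and 31.2 CPM in human neurons, against 2.06 and 4.71 CPM in the other human cells (log2 fold change 3.1 ± 0.27, edgeR adjusted p = 0.000359, n = 2). In mouse it was at 542 and 397 CPM in neurons, against 29.4 and 15.3 CPM in the other cells (4.18 ± 0.24, adjusted p = 0.000103). The neuron sums of EBF1 lay above the sums of other cells in every library. Counts of mouse replicate 1 chose PHOX2A and EBF1, so their mouse p-values partly follow from that choice. With 1 library left out, the mouse change of EBF1 ranged from 3.93 to 4.46. EBF3 gave 3.45 ± 0.27 in human and 3.43 ± 0.26 in mouse, and EBF2 the smaller values of 1.63 ± 0.23 and 1.29 ± 0.21 (edgeR adjusted p at most 0.00221 for all 4). TBX3, at 1.72 ± 0.65 in human and 1.00 ± 0.64 in mouse, and TBX2, at 1.02 ± 1.31 and -0.12 ± 0.82, did not pass in either species, with edgeR adjusted p of 0.0794 or more. TBX3 passed in human without mouse replicate 1 (adjusted p = 0.0424) and at a gate of 10 STMN2 UMIs (0.0337), and at that gate EBF2 no longer passed in either species, with log2 fold changes of 0.20 in human and 0.30 in mouse.

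PHOX2A was the only member whose change passed the test of a difference between the species, in which 9.44% of the genes passed, 5.15% in the direction of PHOX2A. In human it was at 0 and 0.458 CPM in neurons, against 0.411 and 3.77 CPM in the other cells. In mouse it was at 198 and 16.5 CPM in neurons, against 9.67 and 0.889 CPM in the other cells. The change in neurons was -3.17 ± 0.50 in human and 4.01 ± 0.21 in mouse, a difference of -7.18 ± 0.47 (SE; edgeR adjusted p = 0.00378). Mouse replicate 1, whose counts chose the genes, held 612 of the 788 PHOX2A UMIs of mouse neurons. This p-value thus partly follows from that choice. With 1 library left out, the mouse change ranged from 3.97 to 4.08 and the difference from -10.4 to -7.08. Without the library as a block 0 members passed for the difference. In human replicate 1 the limit of 3 counts in neurons, 0.805 CPM, lay above the level of the other cells, so a lower level was not detectable there. The human change had an adjusted p of 0.235 without human replicate 2, in which most human PHOX2A was counted. EBF1 rose in both species and the difference of -1.08 ± 0.34 between its changes did not pass (edgeR adjusted p = 0.0963), but it did without human replicate 1 (0.0356) and without mouse replicate 1 (0.00693).

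**Figure D2:**
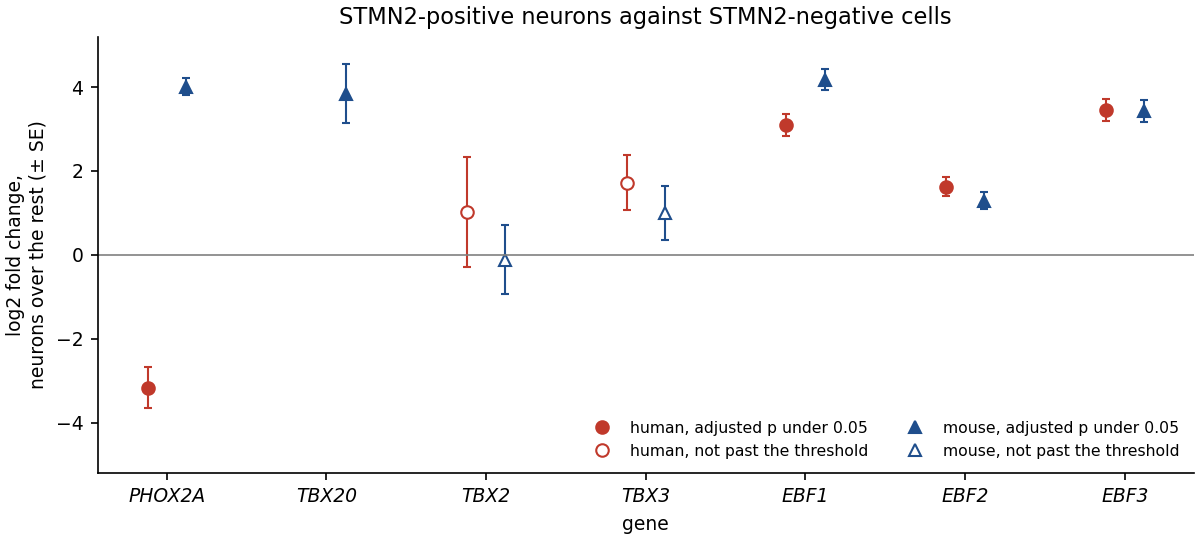
Log2 fold change of each gene in STMN2-positive neurons over STMN2-negative cells of the same libraries (vertical axis, ± SE), human left of mouse; filled symbols passed the test. The EBF genes lie above 0 in both species and PHOX2A lies at -3.17 in human and 4.01 in mouse; TBX20 has no human value because it had no human UMI.

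The few human cells with PHOX2A held other transcripts than the mouse ones. A PHOX2A UMI was found in 6 of 1927 and 26 of 1461 human cells, against 56 of 1744 and 23 of 2521 mouse cells. No human cell held more than 3 PHOX2A UMIs, against up to 24 in mouse replicate 1 and 8 in mouse replicate 2. Of the human cells, 0 of 6 and 2 of 26 were neurons, against 32 of 56 and 13 of 23 in mouse, and ISL1 was found in 0 and 1 human cells, against 36 and 15 mouse cells. COL1A2, a fibrillar collagen chain, was instead found in 3 of 6 and 24 of 26 of the human cells, against 1 of 56 and 0 of 23 of the mouse cells. In the human PHOX2A-positive cells without STMN2, the 11 markers of neural crest or mesenchyme summed to 785 and 2896 CPM, against 246 and 567 CPM in all human STMN2-negative cells, with LUM at 262 and 777 CPM and TWIST1 at 91.6 and 870 CPM. The crest factors FOXD3, TFAP2A and TFAP2B were at 0 there in both libraries and SOX10 had 1 UMI. In the mouse PHOX2A-positive cells without STMN2 the same 11 markers summed to 6.61 and 33.4 CPM. Whether these markers have a part in the human PHOX2A values was not tested. In human replicate 2, 17 of the 26 cells lay in 1 cluster led by COL2A1, LUM, TWIST1 and DCN, in which PHOX2A was at 24.0 CPM.

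Mouse neurons with at least 1 PHOX2A UMI held more EBF1 and TBX20 than the other mouse neurons, and not more EBF2 or EBF3. This comparison had 32 and 13 PHOX2A-positive neurons, against 179 and 442 PHOX2A-negative neurons, in mouse, while human neurons, with 0 and 2, gave none. In edgeR's test 3.96% of 8241 genes passed (326, against 68 with DESeq2), 2.07% higher and 1.88% lower, and EBF1 and TBX20 were among them of 4 members tested, from which nothing is read because counts of these cells chose the genes. EBF1 was at 981 and 724 CPM in PHOX2A-positive neurons of mouse replicates 1 and 2, against 435 and 385 CPM in PHOX2A-negative neurons. It was higher in both libraries, by ratios of 2.26 and 1.88, and the log2 fold change was 1.07 ± 0.12 (SE, n = 2). TBX20 was at 29.7 and 20.8 CPM in PHOX2A-positive neurons, against 0.807 and 0.292 CPM in PHOX2A-negative neurons, from 18 and 8 UMIs against 2 and 3 (log2 fold change 5.67 ± 0.71). EBF2 was at 34.7 and 7.81 CPM in PHOX2A-positive neurons, against 42.7 and 22.8 CPM outside them (-0.57 ± 0.36). EBF3 was at 56.2 and 28.6 CPM in PHOX2A-positive neurons, against 46.0 and 45.5 CPM outside them (-0.06 ± 0.29). The EBF3 values fell on different sides in the 2 libraries, and the EBF2 values were lower in both. Only 1 residual degree of freedom stood behind this fit, which borrows its spread from all genes. The PHOX2A-positive neurons were also the deeper ones, with a median of 18435.5 and 30851 UMIs against 13723 and 22828 UMIs.

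At 7000 UMIs per cell, EBF1 was found in 30 of 32 (93.8%, 79.2 to 99.2%) and 10 of 13 (76.9%, 46.2 to 95%) PHOX2A-positive neurons, against 108 of 179 (60.3%, 52.8 to 67.6%) and 237 of 442 (53.6%, 48.8 to 58.3%) PHOX2A-negative neurons. At that depth all mouse neurons with TBX20 had PHOX2A: 5 of 32 and 2 of 13, against 0 of 179 and 0 of 442, which allows shares of cells with a UMI of up to 1.68% and 0.679% outside, while the unthinned sums held 2 and 3 TBX20 UMIs there. EBF3 was found in 8 of 32 and 4 of 13 PHOX2A-positive neurons, against 50 of 179 and 106 of 442 others, and EBF2 in 5 of 32 and 1 of 13, against 38 of 179 and 56 of 442. The difference in the share with EBF1 was 28.4 percentage points on average, higher in 2 of 2 libraries, given here with no test. The converse did not hold, since EBF1 was mostly found without PHOX2A: PHOX2A-positive neurons made up 21.7% and 4.05% of EBF1-positive neurons and held 35.5% and 6.56% of the EBF1 UMIs of neurons in mouse. Among neurons without PHOX2A, EBF1 was at 29.5 and 30.4 CPM in human, against 435 and 385 CPM in mouse, so the gap between species was nearly as large without the PHOX2A-positive neurons.

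**Figure D3:**
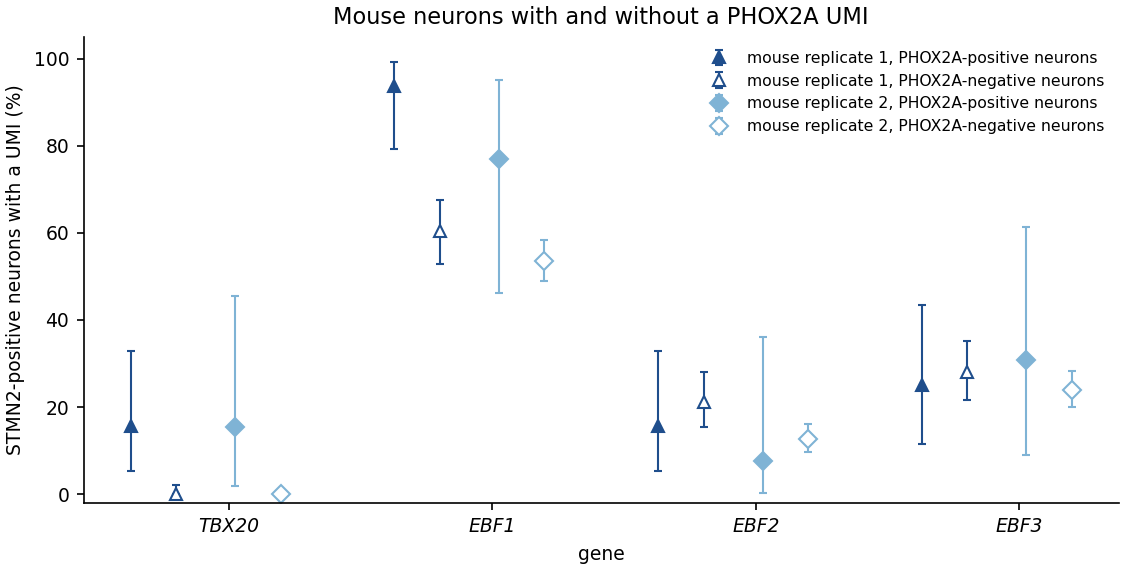
Percent of mouse STMN2-positive neurons with a UMI of TBX20, EBF1, EBF2 and EBF3 (vertical axis), for neurons with PHOX2A (filled) and without it (open) in each mouse library; bars are 95% Clopper-Pearson intervals. EBF1 is at 93.8% and 76.9% with PHOX2A, against 60.3% and 53.6% without, TBX20 is at 0% without PHOX2A, and the intervals of EBF2 and EBF3 overlap.

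Factors of motor neuron and interneuron identity are described next for mouse neurons with and without PHOX2A. Genes given with a log2 fold change were named because they passed the test between these same neurons. That they differ was thus fixed by this choice and is no support for an identity. The values are log2 fold changes with SE over the 2 mouse libraries, and only genes past the filter on low counts have one, so they are not counted as members of their lists. ISL1, the LIM factor common to most motor neurons, was at 388 and 463 CPM in PHOX2A-positive neurons, against 117 and 251 CPM in the others (1.32 ± 0.16). RUNX1, a runt-domain factor, was at 9.91 and 83.3 CPM in PHOX2A-positive neurons, against 2.82 and 4.57 CPM in the others (3.69 ± 0.49, from few UMIs). NKX6-1, a ventral progenitor and motor neuron factor named here after its values were seen, was at 415 and 216 CPM in PHOX2A-positive neurons, against 175 and 96.1 CPM in the others. GATA3 had 0 UMIs in PHOX2A-positive neurons of both libraries, against 38.3 and 7.68 CPM in the others. Among somatic motor neuron genes, MNX1 was at 28.1 and 75.5 CPM in PHOX2A-positive neurons, against 92.7 and 178 CPM in the others (-1.41 ± 0.21). LHX3, the LIM factor of the somatic motor neuron and V2a programmes, gave -1.37 ± 0.23 and ISL2 gave -1.80 ± 0.41. SLC18A3, the vesicular acetylcholine transporter, was at 172 and 216 CPM in PHOX2A-positive neurons, against 160 and 239 CPM in the others.

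Several interneuron factors were lower with PHOX2A in both libraries. EN1, which marks V1 neurons, was at 6.61 and 2.60 CPM in PHOX2A-positive neurons, against 77.0 and 67.2 CPM in the others (-3.83 ± 0.42). PAX2, of dorsal and V0 to V1 interneurons, had 0 UMIs in PHOX2A-positive neurons, against 21.4 and 12.2 CPM in the others. TAL1, a basic helix-loop-helix factor of V2b neurons, was at 3.30 and 0 CPM in PHOX2A-positive neurons, against 34.7 and 8.16 CPM in the others. LHX1 gave -2.01 ± 0.23, FOXD3 gave -2.10 ± 0.46 and GATA2 gave -2.05 ± 0.60. Markers of other peripheral neurons were low. POU4F1, a defining factor of sensory neurons, was at 4.96 and 0 CPM in PHOX2A-positive neurons, against 2.42 and 5.54 CPM in the others. HAND2, of autonomic neurons, had 0 UMIs in PHOX2A-positive neurons, and DBH, the enzyme of noradrenaline synthesis, had 3 UMIs in each library. INSM1 gave 0.92 ± 0.21 and PRPH, a peripheral intermediate filament, gave -0.88 ± 0.20.

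Among HOX genes of paralogues 1 to 5, HOXB4 alone passed and was named, at 0.81 ± 0.17. The other HOX genes are not given, so no hindbrain or spinal position is read from this value. Maturity markers were mixed, with TUBB3 at 0.46 ± 0.09, MAP2 at -0.68 ± 0.16, INA at -0.59 ± 0.11 and DCX at -0.51 ± 0.14. Of progenitor genes, VIM gave 1.07 ± 0.11, HES5 gave -3.29 ± 0.43 and PAX6 gave -1.84 ± 0.39, and the neurogenic factor NEUROG2 gave -2.58 ± 0.27, while the median over all genes was -0.03. STMN2 itself, the gating gene, was at 1624 and 2899 CPM in PHOX2A-positive neurons, against 1503 and 2838 CPM in the others. The part of these differences in the EBF1 and TBX20 values was not tested. Some of these genes, such as ISL1, GATA3 and EN1, stand in more than 1 list, and the lists were written with earlier results known.

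In cells with NKX2-2, the factor of progenitors bordering the floor plate, EBF1 was found less often in human than in mouse at 7000 UMIs. PHOX2A and TBX20 were found there in mouse replicate 1 alone. Among the NKX2-2-positive cells below the STMN2 gate, the EBF1 gap rested mainly on mouse replicate 1. NKX2-2 was found in 34 of 1927 and 98 of 1461 human cells, against 127 of 1744 and 56 of 2521 mouse cells. Most of these cells held the progenitor factor SOX2, 27 of 34 and 91 of 98 in human, against 80 of 127 and 41 of 56 in mouse. OLIG2, which marks the neighbouring motor neuron progenitors, was found in 28 and 52 of the human ones, against 44 and 27 of the mouse ones, and FOXA2, a floor plate factor, in 0 and 9 human ones, against 23 and 2 mouse ones. PHOX2A was found in 0 of 34 and 0 of 98 human NKX2-2-positive cells, which allows shares of cells with a UMI of up to 8.82% and 3.06%, against 10 of 127 (7.87%, 3.84 to 14.0%) and 0 of 56 mouse ones. The limit for human replicate 1 lies above the share in mouse replicate 1, so a difference was not detectable there at this depth. EBF1 was found in 0 of 34 and 1 of 98 human NKX2-2-positive cells, against 24 of 127 (18.9%) and 8 of 56 (14.3%) mouse ones. TBX20 was found in 4 of the 127 cells of mouse replicate 1 and in no NKX2-2-positive cell of the other libraries, and TBX2 and TBX3 were found in none at 7000 UMIs. EBF2 was found in 0 and 2 human cells, against 9 and 3 mouse cells, and EBF3 in 0 and 1 human cells, against 6 and 4 mouse cells. The exact permutation p between species was 0.33 for each EBF gene and 1 for PHOX2A. Without thinning, EBF3 was found in 1 of 61 and 18 of 208 (8.65%) human cells, against 21 of 222 (9.46%) and 11 of 112 (9.82%) mouse cells, so human replicate 2 lay close to mouse for EBF3.

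Cells with both NKX2-2 and the STMN2 count of a neuron were rare, at 0 and 6 in human and 7 and 6 in mouse, too few for a fit. EBF1 was found in 0 of the 6 human ones, against 7 of 7 and 6 of 6 mouse ones. PHOX2A was found in 0 of the 6 human ones, against 5 of 7 in mouse replicate 1 and 0 of 6 in mouse replicate 2, and TBX20 in 2 of the 7. At 7000 UMIs, mouse replicate 1 thus gave every cell in which NKX2-2 was seen together with PHOX2A or TBX20.

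Among cells below the STMN2 gate, EBF1, EBF3 and PHOX2A fell in NKX2-2-positive relative to NKX2-2-negative cells in human, and no member passed in mouse. This fit took its spread wholly from all genes, so its p-values do not use a gene's own spread between libraries. In human 2.14% of 11757 genes passed (252, against 31 with DESeq2), 1.57% as lower, and 3 of the 5 members tested did. In mouse 7.13% passed (838, against 196 with DESeq2) and 0 of 5 members, while at an unadjusted p under 0.05, which 2082 genes met, PHOX2A did. EBF1 was at 0 and 0.498 CPM in human NKX2-2-positive cells, against 2.11 and 5.11 CPM in NKX2-2-negative ones (-3.53 ± 0.95, edgeR adjusted p = 0.0137). In mouse it was at 44.7 and 14.1 CPM in NKX2-2-positive cells, against 28.3 and 15.3 CPM in NKX2-2-negative ones (0.27 ± 0.25, adjusted p = 0.666). EBF3 was at 0 and 1.49 CPM in human NKX2-2-positive cells, against 2.53 and 8.68 CPM in NKX2-2-negative ones (-2.70 ± 0.81, adjusted p = 0.0412), and in mouse at 4.75 and 8.79 CPM against 4.51 and 2.73 CPM (0.68 ± 0.49, adjusted p = 0.525). PHOX2A had 0 UMIs in human NKX2-2-positive cells, against 0.421 and 4.13 CPM in NKX2-2-negative ones (adjusted p = 0.0422). The limit of 3 counts in NKX2-2-positive cells was 5.91 CPM in human replicate 1, above all 3 of its NKX2-2-negative levels, and 1.49 CPM in human replicate 2, so a lower level was detectable in human replicate 2 alone. In mouse it was at 23.3 and 0 CPM in NKX2-2-positive cells, against 8.76 and 0.904 CPM in NKX2-2-negative ones, so the libraries went opposite ways.

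The human calls rest on few UMIs, 1 for EBF1 and 3 for EBF3 in NKX2-2-positive cells, and DESeq2 called none of the 3 (adjusted p of 0.789 for EBF1). Without human replicate 1 and without human replicate 2 none passed either, with adjusted p for EBF1 of 0.138 and 0.780. Counts of mouse replicate 1 chose PHOX2A and EBF1, so the p-values of their differences between species partly follow from that choice. The differences between the species' changes passed for PHOX2A, for EBF1 (-3.80 ± 0.99, edgeR adjusted p = 0.00986) and for EBF3 (-3.38 ± 0.96, adjusted p = 0.0263). In this test 2.01% of the genes passed (236, against 27 with DESeq2), 1.32% in that direction, and none of the 3 members passed with DESeq2. None passed without human replicate 1 or without human replicate 2, PHOX2A and EBF1 did not pass without mouse replicate 1 (adjusted p of 1 and 0.203), and EBF3 did not pass without mouse replicate 2 (0.437).

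The EBF genes differed in the STMN2 counts at which they were found. EBF2 was found at 1 to 2 STMN2 UMIs in 9.68% and 6.41% of human cells and in 30.7% and 26.8% of mouse cells. At 3 to 9 UMIs it was in 24.1% and 19.4% of human cells and in 31.4% and 27.9% of mouse cells, and at 10 to 29 UMIs in 9.62% and 6.63% of human cells and in 9.80% and 10.1% of mouse cells. At 30 or more it was in 3.51% and 0.769% of human cells and in 3.23% of cells in mouse replicate 2, while mouse replicate 1 had only 4 such cells and is not read there. EBF1 was found at 10 to 29 STMN2 UMIs at least as often as at lower counts in all libraries but mouse replicate 2, in 18.6% and 19.3% of human cells and 67.6% and 54.4% of mouse cells. EBF3 was in 27.2% and 43.8% of human cells with 30 or more, its highest human shares, whereas in mouse replicate 2 it was at 34.9% at 3 to 9 UMIs and 17.7% at 30 or more. These shares are descriptions at 1 depth, with no test over cells.

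**Figure D4:**
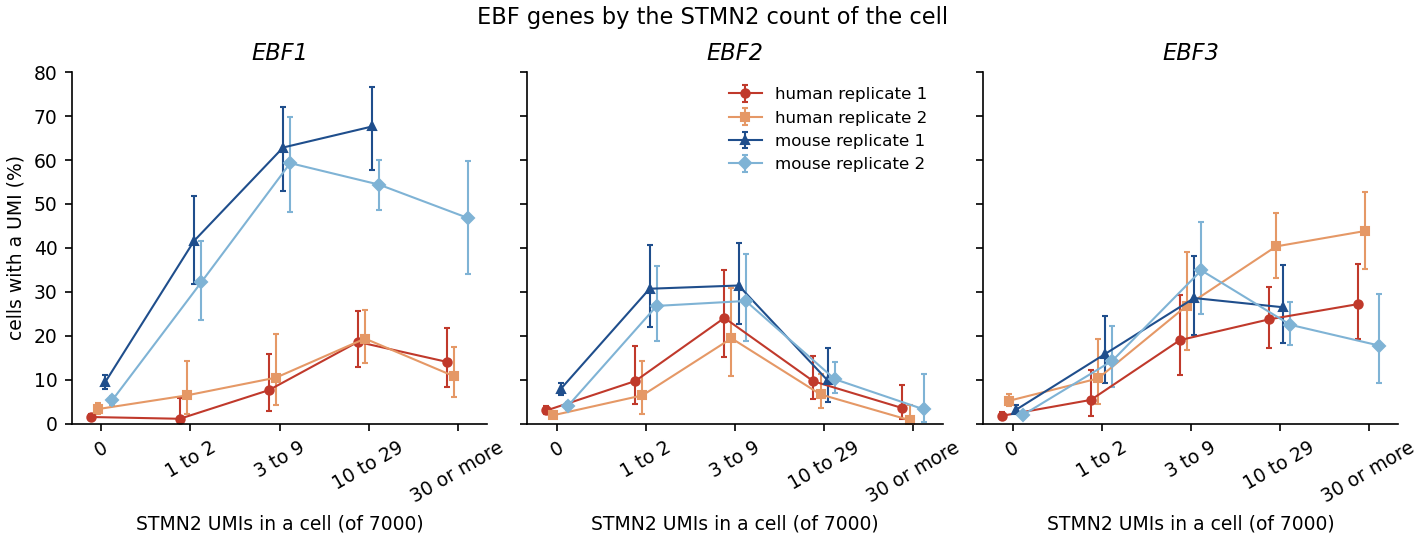
Percent of cells with a UMI of EBF1, EBF2 and EBF3 (vertical axis, 1 panel a gene) by the number of STMN2 UMIs in the cell out of 7000 (horizontal axis, low to high), for the 4 libraries; bars are 95% Clopper-Pearson intervals and points of fewer than 20 cells are left out. EBF2 is highest at 3 to 9 UMIs, with mouse shares nearly as high at 1 to 2, and low at 30 or more, and the mouse curves of EBF1 lie above the human ones at every level.

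Below the STMN2 gate, the EBF genes were found more often with DLL3, a Notch ligand of newly committed neuronal cells. Among these cells, EBF1 was found in 3.11% and 4.33% of human DLL3-positive cells, against 0.862% and 3.29% of human DLL3-negative cells, and in 38.9% and 38.6% of mouse DLL3-positive cells, against 3.84% and 2.77% of mouse DLL3-negative cells. EBF2 was found in 11.5% and 9.96% of human DLL3-positive cells, against 0.431% and 0.117% of DLL3-negative ones, and in 33.8% and 35.5% of mouse DLL3-positive cells, against 2.50% and 1.41% of DLL3-negative ones. EBF3 was found in 5.74% and 14.7% of human DLL3-positive cells, against 0.603% and 3.05% of DLL3-negative ones, and in 14.4% and 18.0% of mouse DLL3-positive cells, against 1.08% and 0.762% of DLL3-negative ones. All 3 genes were found more often with DLL3 in all 4 libraries.

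Across 65 clusters of the 4 libraries, formed without the members, NKX2-2 and STMN2, PHOX2A and TBX20 peaked in the same place. In 1 cluster of mouse replicate 1, of 76 cells, PHOX2A was at 688 CPM, TBX20 at 19.7 CPM and EBF1 at 816 CPM, and 45 of the library's 56 PHOX2A-positive cells and 25 of its 127 NKX2-2-positive cells lay there. The next highest PHOX2A level, 41.5 CPM, was in a cluster of mouse replicate 2 led by CNTN2, ISL1 and SLIT2, which held 10 of that library's 23 PHOX2A-positive cells and its highest TBX20 level, 2.37 CPM. EBF1 was highest elsewhere, at 1167 CPM in a cluster of mouse replicate 2 led by PCP4, SNCG and ONECUT2, in which PHOX2A was at 13.6 CPM and TBX3 at 13.0 CPM. In human replicate 2 a cluster that shared PCP4 and ONECUT2 among its leading genes, beside CRABP1 and PRPH, had the highest EBF3 level of all, 119.8 CPM, with TBX3 at 25.1 CPM and EBF1 at 104 CPM. TBX3 (29.3 CPM) and TBX2 (9.03 CPM) were highest in a cluster of 22 cells of mouse replicate 2 led by S100A6, COL1A1 and SPP1, and TBX2 next in one led by KRT18, KRT8 and EPCAM (7.25 CPM). Per UMI, TBX3 was higher in neurons than in the other cells of human replicate 2 and mouse replicate 2, by ratios of 4.38 and 2.08. The ratios in replicate 1, 1.96 in human and 4.33 in mouse, rest on 2 neuron UMIs each, under the limit of 3 counts. As given above, this change did not pass in either species. EBF2 was highest at 129.7 CPM in a cluster of mouse replicate 1 led by CCND1, CRABP1, HES6 and INSM1, and its highest human level, 53.9 CPM, was in a cluster of human replicate 1 led by RGS16, DLL3 and GADD45G.

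**Figure D5:**
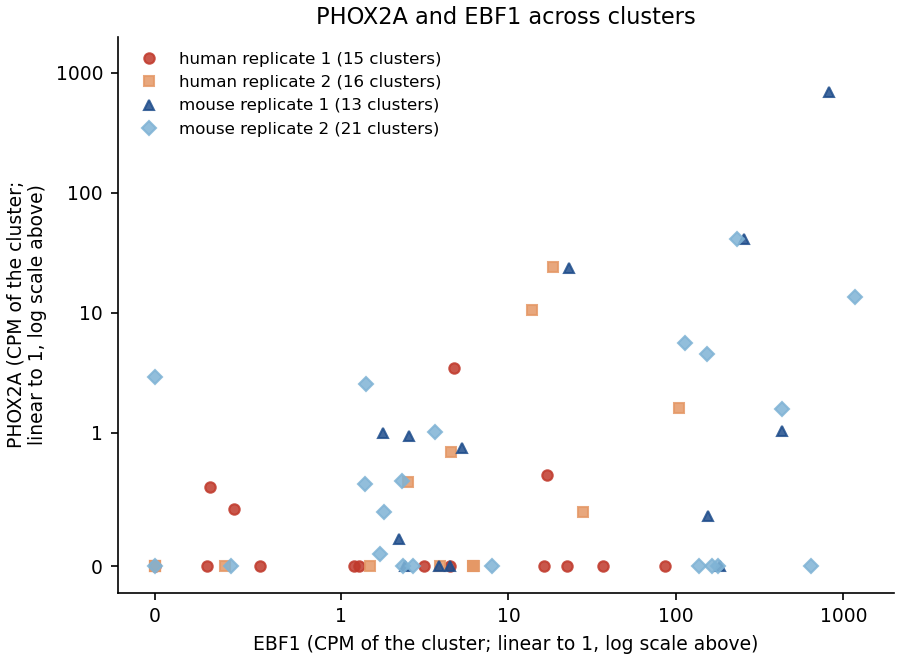
EBF1 level (horizontal axis) and PHOX2A level (vertical axis) of each of the 65 clusters, in CPM of summed counts (both axes linear to 1 and logarithmic above), for the 4 libraries. A cluster of mouse replicate 1 stands alone at 816 CPM of EBF1 and 688 CPM of PHOX2A, and clusters rich in EBF1 without PHOX2A lie along the base.

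The genes whose cluster levels followed each member most closely also set the EBF genes apart. Over the 65 clusters, with log2(CPM + 10) centred within each library, EBF2 went with DLL3 (Pearson r = 0.871), NEUROD4 (0.867), a neurogenic factor, and MFNG (0.864), a modifier of Notch. EBF1 went with PARP6 (0.880) and AFAP1 (0.863), and EBF3 with CHRNA3 (0.905), a nicotinic receptor subunit, CELF3 (0.898) and ONECUT2 (0.895). TBX3 went with NRN1 (0.806), TMED3 (0.668) and FKBP7 (0.653), and TBX2, which reached 1.33 CPM at most in a human cluster, with NFKBIA (0.811), CSTB (0.807) and S100A6 (0.767), values that came from mouse, since within human they were -0.03, -0.11 and 0.10. Among genes that reached 50 CPM in a cluster of each species, PHOX2A was nearest to MFAP4 (0.463), EBF1 (0.445) and DRAM2 (0.443). Within human these values were 0.638, 0.232 and 0.036, and within mouse 0.464, 0.471 and 0.536. TBX20, at 0 in every human cluster, was nearest to DRAM2 (0.466), CYB5R3 (0.42) and AGFG1 (0.407). TBX20 itself did not reach 50 CPM, and over the 34 mouse clusters it went with PHOX2A at r = 0.933. That value leans on the 1 cluster of mouse replicate 1 in which both genes peaked. Counts of that library chose the genes, so no support is drawn from it or from the value of PHOX2A with EBF1. Clusters of 1 library share its depth and its chemistry, so these values describe the libraries and carry no test.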

How the data were processed

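The deposited files hold UMI counts per gene and cell, made by the authors with Cell Ranger 3.1.0 on the builds mm10 and hg38, per the submitters' processing notes, after cells had been sorted for GFP per the labels' protocols. The gene annotation is not given in the sources used here, and replicates of a species differ in their number of gene entries. Cells needed 1000 UMIs, 500 genes and at most 10% mitochondrial UMIs, which removed 15 and 215 human and 5 and 77 mouse cells. Scrublet, in scanpy 1.11.5 with an expected rate of 5%, marked 11 and 24 human and 5 and 32 mouse cells as doublets. The 60 barcodes seen in both species of the mixed library were removed from both, and 2 and 1 barcodes were shared by mouse replicate 2 with human replicate 2 and with mouse replicate 1. Total depth was 28577630 and 32803173 UMIs in human replicates 1 and 2 and 38166382 and 83969715 UMIs in mouse replicates 1 and 2, and intervals cover counting error only.

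Cells were gated after thinning to 7000 UMIs (STMN2 at 3 UMIs, NKX2-2 and PHOX2A at 1). Raw counts were summed per library and gate, sums of fewer than 10 cells were not used, and sums were tested with edgeR 4.0.16 on the symbols that passed its filter on low counts, with the library as a block where both gates came from it and with gating genes left out. A floor is 3 counts over the total. Leiden clustering (leidenalg 0.10.2, resolution 1) was run per library. DESeq2 1.42.0, no filter, other gates, other depths, doublets kept, no block and each library left out were alternatives. A sign-flip test of shares with and without PHOX2A is not reported, since counts of these cells chose the genes. The tests were checked on simulated counts at the estimated spread: changes of 2 on the log2 scale were recovered in 8% of genes between species in neurons, so many real differences of that size would be missed there, and in 72% to 100% of genes in the PHOX2A comparison. The members, lists and tests were chosen with earlier results of these data known. Named genes were the 7 members, the 3 genes most like each across clusters (of those at 50 CPM or more in a cluster of each species), and up to 4 genes of each list that passed with PHOX2A, by size of change. Some genes that this rule names are not reported here.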

Additional observations from a re-analysis of the deposited data

Results flagged for a closer look

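The change of PHOX2A in neurons relative to the other cells differed between the species, by -7.18 ± 0.47 on the log2 scale, human minus mouse (edgeR adjusted p = 0.00378). It was higher in neurons in 2 of 2 mouse libraries and lower in human replicate 2, while human replicate 1, with 0 UMIs in neurons, could not show a lower level. PHOX2A was chosen with counts of mouse replicate 1 known, so the p-value partly follows from that choice. The human change did not pass without human replicate 2 (adjusted p = 0.235), and the difference did not pass without the library as a block.

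In cells below the STMN2 gate, the change with NKX2-2 differed between the species for 3 members, human minus mouse. The difference was -3.80 ± 0.99 for EBF1 (edgeR adjusted p = 0.00986) and -3.38 ± 0.96 for EBF3 (adjusted p = 0.0263), each lower with NKX2-2 in human replicate 2, while human replicate 1, with 0 UMIs, could not show a lower level. In mouse EBF1 was higher in 1 of 2 libraries. EBF3 was nearly level in mouse replicate 1, at 4.75 CPM with NKX2-2 against 4.51 CPM without it. In mouse replicate 2 it was at 8.79 against 2.73 CPM, and each mouse NKX2-2-positive sum held only 10 EBF3 UMIs. For PHOX2A the fitted difference was -9.77 ± 2.47 (adjusted p = 0.00692), but PHOX2A had 0 UMIs in human NKX2-2-positive cells, so this value depends on the prior count and is not a bound. All 3 rest on 34 and 92 human cells, and none of the 3 passed with DESeq2. Counts of mouse replicate 1 chose PHOX2A and EBF1, so their p-values partly follow from that choice. As given above, the calls for all 3 also changed with 1 library left out.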

How the results depend on the processing

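Between the species in neurons, EBF1 passed in every alternative run, with an adjusted p of at most 0.0388; the number of members past the threshold was 1 to 2 with 1 library left out, against 2. For neurons against the other cells, leaving out 1 library gave 3 to 5 members in human against 4, 5 in mouse against 5, and 1 to 2 for the difference against 1. For NKX2-2 it gave 0 to 3 members in human against 3, 0 to 1 in mouse against 0, and 0 to 2 for the difference against 3. Without the library as a block the members past the threshold were 2 in human and 2 in mouse for neurons and 0 for the difference, 0 in human and 0 for the difference for NKX2-2, and 0 with PHOX2A. For NKX2-2, DESeq2 gave 0 in human and 0 for the difference, and a gate of 10 STMN2 UMIs gave 2 in mouse, PHOX2A and EBF1. The cause was not tested.

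Replicate numbers are shared by both species, and replicate 1 of both is 1 mixed library. The deviations of replicate 1 correlated at 0.303 over 10455 genes, and with the replicate block 2 members passed in neurons between species, EBF1 at -3.85 (adjusted p = 0.0125) and PHOX2A, which changed no call.

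Signs turned for values that had not passed. For the change in neurons, TBX2 in mouse was 0.42 with DESeq2, 0.11 at a gate of 10 and 0.022 without the block. The difference between species was -0.11 for EBF2 and -0.23 for EBF3 at a gate of 1 and -0.098 for EBF2 at a gate of 10, and with 1 library left out it ranged from -0.38 to 0.38 for EBF3 and from -0.35 to 1.06 for TBX3. With NKX2-2 in mouse, EBF2 was 0.15 at a gate of 1, 0.029 at a gate of 10 and 0.027 without the block. With 1 library left out the values in mouse ranged from -7.17 to 1.34 for PHOX2A, from -7.57 to 1.76 for TBX3, from -0.23 to 0.59 for EBF1 and from -0.49 to 0.20 for EBF2, and the difference for TBX3 from -8.13 to 0.65. EBF3 with PHOX2A was 0.27 at a gate of 1 and ranged from -0.62 to 0.32. In shares, in percentage points, human minus mouse in neurons was -0.045 for TBX3 and -8.49 for EBF3 without thinning, and 0.12 for TBX2 and -0.10 for TBX3 at 4000 UMIs. With 1 library left out it ranged from -0.457 to 0.072 for TBX2, from -0.10 to 0.911 for TBX3 and from -2.05 to 13.3 for EBF3. PHOX2A-positive minus PHOX2A-negative neurons was 4.29 for TBX2 and 2.53 for TBX3 without thinning and 1.49 for EBF2 at a gate of 10, and ranged from -2.93 to 6.79 for EBF3 with 1 library left out. Keeping doublets, using no filter on low counts and a PHOX2A gate of 2 changed no call. NKX2-2 within neurons and PHOX2A in human gave no sums of 10 cells, so those alternatives were not run, and without 1 mouse library the PHOX2A comparison had no residual degrees of freedom.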
